A study of Mus musculus with 6 samples.

Results

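*Cpe*, *Cbr3*, *Pkdcc* and *Car4* are 4 genes for secreted, membrane-bound or cytosolic enzymes whose signal was high in mouse epiblast-like cells (EpiLCs) and lower after expression of PRDM14. They were selected on these same arrays, by their lower signal in EpiLCs + PRDM14 than in EpiLCs at day 2 (d2) and their higher signal in EpiLCs than in ESCs, so those differences are given as a description. All probe sets that carry only 1 of these 4 symbols were taken, which gave 6 of 45037 probe sets and 4 of 17097 named genes. *Cpe* and *Cbr3* have 1 probe set each, and *Pkdcc* and *Car4* have 2 each.

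The 6 arrays hold RNA from E14tg2a, a mouse embryonic stem cell (ESC) line, that carried a doxycycline-inducible FLAG-*Prdm14* cassette integrated by the piggyBac transposon, in lines grown from picked colonies. The groups are undifferentiated ESCs, EpiLCs after 2 days with activin A and bFGF, EpiLCs (d4) kept without PRDM14 until day 4, and EpiLCs + PRDM14, in which the cassette was to be switched on from day 2 to day 4 by the design of the study. These EpiLC cultures carried a scramble shRNA, and a further EpiLC (d2) culture and a further EpiLC + PRDM14 culture are labelled as carrying shRNAs against *Tet1* and *Tet2* (KD). By the methods of the study, the cells were replated at day 2 in another medium, with doxycycline to switch the cassette on or without it. A difference of a later culture from EpiLCs (d2) thus includes this change of medium and the time in culture. EpiLCs + PRDM14 and EpiLCs (d4) differ in doxycycline as well. No culture labelled KD was kept to day 4 without PRDM14. No shRNA is given for the ESCs, and the sources differ on whether they were grown with serum and LIF or in serum-free medium with 2 inhibitors and LIF. Each condition has 1 array, so no difference below has a replicate check and precision is limited by how few arrays there are. Each array is bulk RNA, in which fewer cells of a type and less RNA per cell cannot be told apart.

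The 4 enzymes act in unrelated reactions. *Cpe* encodes carboxypeptidase E, which trims basic residues from the ends of peptide hormone precursors in secretory granules. *Cbr3* encodes carbonyl reductase 3, a cytosolic enzyme that uses NADPH to reduce carbonyl groups. *Pkdcc* encodes a secreted kinase that phosphorylates tyrosines of proteins in the secretory pathway and is known for its part in bone growth. *Car4* encodes carbonic anhydrase 4, which is tethered to the outer cell surface and interconverts carbon dioxide and bicarbonate. EpiLCs model the epiblast shortly after implantation, and PRDM14 is a zinc finger protein of ESCs and early germ cells that is known for repressing FGF signalling and DNA methyltransferase genes in ESCs.

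Values are log2 signals from robust multi-array average (RMA), shifted so that every array has the same median of 5.28. A gene was called higher or lower past a 1.5-fold difference, which is 0.585 on the log2 scale, and it is represented by its brightest probe set unless another is named. The cell labels were checked against marker lists. All 7 genes of the naive ESC list were higher in ESCs than in EpiLCs (d2), with a median log2 difference of 2.01, and 7 of 7 passed in EpiLCs + PRDM14 (median 1.31). Of 6 EpiLC markers, 5 were lower with PRDM14 than in EpiLCs (d2) in the scramble cultures, with a median of -1.19. Against EpiLCs (d4), 3 of the 6 were lower with PRDM14 (median -0.49), and 6 of the 7 naive ESC markers were higher (median 1.64). In the pair labelled KD, 5 of 7 naive ESC markers were higher with PRDM14 (median 0.91). There 5 of 6 EpiLC markers were lower (median -1.08). KD EpiLCs (d2) already read higher than scramble EpiLCs (d2) in 4 of the 7 naive ESC markers (median 0.70). None of the EpiLC markers passed between these cultures (median -0.20). Summed linear signals of the lists of other lineages ranged over the 6 arrays from 297 to 331 for endoderm, 427 to 545 for mesoderm, 254 to 518 for neural cells, 169 to 209 for fibroblasts and 378 to 522 for trophoblast, and their part in the results was not tested. Of 6 neural markers only *Tubb3* passed with PRDM14 in either pair, with 5.94 in EpiLCs (d2) and 8.25 in EpiLCs + PRDM14. Of 6 trophoblast markers only *Krt7* did, with 4.87 in EpiLCs (d2) and 5.55 in EpiLCs + PRDM14. In the cultures labelled KD it read 5.30 at d2 and 6.70 with PRDM14. In EpiLCs (d4), without PRDM14, *Krt7* read 6.06, above EpiLCs + PRDM14. The *Prdm14* probe set read 6.95 in ESCs and 4.91 to 5.18 in the EpiLC arrays, those labelled + PRDM14 included, so the arrays do not show the transgene. The brightest *Tet2* probe set read 8.53 in EpiLCs (d2) and 8.71 in the culture labelled KD at d2, and 8.51 and 7.97 in the corresponding cultures with PRDM14. The arrays are therefore called by their labels throughout.

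Promoters of 3 of the 4 genes are listed in the RefSeq promoter table (GRCm38.p6), which holds 250 bases before and 50 bases after each transcription start. The 250 upstream bases are shown because these genes were lower together with PRDM14, and they let their base composition be compared. All 3 are on the plus strand, at chr16:93682969-93683218 for *Cbr3*, chr17:83215033-83215282 for *Pkdcc* and chr11:84957504-84957753 for *Car4*. Capitals mark GC boxes (GGGCGG).
Cbr3: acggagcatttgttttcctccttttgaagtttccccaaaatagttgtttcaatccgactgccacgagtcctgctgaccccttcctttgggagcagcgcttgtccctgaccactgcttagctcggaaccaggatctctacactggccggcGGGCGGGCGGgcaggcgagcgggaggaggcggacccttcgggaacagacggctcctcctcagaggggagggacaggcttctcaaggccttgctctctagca
Pkdcc: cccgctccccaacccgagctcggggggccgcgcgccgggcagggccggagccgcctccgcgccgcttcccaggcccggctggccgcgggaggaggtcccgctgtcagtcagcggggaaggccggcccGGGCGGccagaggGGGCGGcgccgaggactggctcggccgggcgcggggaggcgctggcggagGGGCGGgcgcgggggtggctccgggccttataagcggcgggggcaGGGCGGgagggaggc
Car4: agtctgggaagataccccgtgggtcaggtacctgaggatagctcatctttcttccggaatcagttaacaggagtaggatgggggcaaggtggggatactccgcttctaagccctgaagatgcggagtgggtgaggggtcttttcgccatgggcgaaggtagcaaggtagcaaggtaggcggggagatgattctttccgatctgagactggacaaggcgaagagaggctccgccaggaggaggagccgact
The *Pkdcc* window of 300 bases was 82.7% G and C with 42 CpG sites, and 99.6% of 32851 promoters had a lower GC content. The windows of *Cbr3* and *Car4* held 60.0% and 57.3% G and C, with 19 and 15 CpG sites, beside medians of 52.7% and 7 sites over all promoters. Both strands of these windows were searched for 6 motifs. GGGCGG was found in 35.7% of all promoters. It occurred at 5 positions in *Pkdcc*, 1 of them on the minus strand past the start and not shown, at 2 overlapping positions in *Cbr3*, and at none in *Car4*. The *Car4* window held a TATAAA 43 bases past its start, a motif found in 13.6% of promoters. None of the 3 windows held the octamer ATGCAAAT (1.74% of promoters), GGTCTCTAA, a motif of PRDM14 (0.256%), the E-box CACGTG (7.15%) or TGACNNNGC, the core of the antioxidant response element (12.4%). These matches describe letters only, and *Cpe* is not in the table.

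*Cpe* had its highest signal in EpiLCs (d2), and the same low signal in ESCs and in both cultures with PRDM14. Its log2 signal was 7.92 in EpiLCs (d2), 7.42 in EpiLCs (d4), 4.68 in EpiLCs + PRDM14, 7.28 in KD EpiLCs (d2), 4.69 in KD EpiLCs + PRDM14 and 4.68 in ESCs. After the shift the 3 low arrays lie within 0.01 of each other and below the array median, where it was not tested whether the probe set is above background, and the 3 EpiLC arrays without PRDM14 are all well above them. The levels span a 9.45-fold range, and 99.7% of named genes had a smaller range over the same arrays. The genes were selected for differences among these arrays, so such shares, here and for the other genes below, are a description.

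*Cbr3* was the most graded of the 4 genes. Its log2 signal was 10.01 in EpiLCs (d2), 9.12 in EpiLCs (d4), 7.28 in EpiLCs + PRDM14, 10.06 in KD EpiLCs (d2), 6.61 in KD EpiLCs + PRDM14 and 8.23 in ESCs. Both cultures with PRDM14 lay below ESCs, and EpiLCs (d4) lay between ESCs and EpiLCs (d2). The range was 10.9-fold, larger than that of 99.8% of named genes.

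*Pkdcc* had its lowest signal in ESCs and was high in every EpiLC culture without PRDM14. The brightest probe set read 8.04 in EpiLCs (d2), 8.44 in EpiLCs (d4), 5.54 in EpiLCs + PRDM14, 8.50 in KD EpiLCs (d2), 6.64 in KD EpiLCs + PRDM14 and 4.77 in ESCs. Neither culture with PRDM14 reached the level of ESCs, and the one labelled KD stayed farther above it. The range was 13.3-fold, larger than that of 99.9% of named genes. The other probe set moved little, with 6.09, 6.23, 5.87, 6.19, 5.56 and 5.84 in the same order. Both are of the type whose probes can match more than 1 transcript, and it was not tested which of them measures *Pkdcc* alone.

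*Car4* had the smallest range of the 4 genes. Its brightest probe set read 7.01 in EpiLCs (d2), 7.33 in EpiLCs (d4), 6.22 in EpiLCs + PRDM14, 7.64 in KD EpiLCs (d2), 7.09 in KD EpiLCs + PRDM14 and 5.77 in ESCs. The other probe set read 6.94, 7.18, 5.50, 7.79, 7.29 and 4.94 in the same order. On both probe sets, KD EpiLCs + PRDM14 read close to scramble EpiLCs (d2), and only ESCs and scramble EpiLCs + PRDM14 were low. The range of the brightest probe set was 3.66-fold, and 98.5% of named genes had a smaller one. This probe set is of the same type as those of *Pkdcc*, whose probes can match other transcripts too. The other *Car4* probe set is not of that type and had a wider range, from 4.94 to 7.79.

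**Figure D1:**
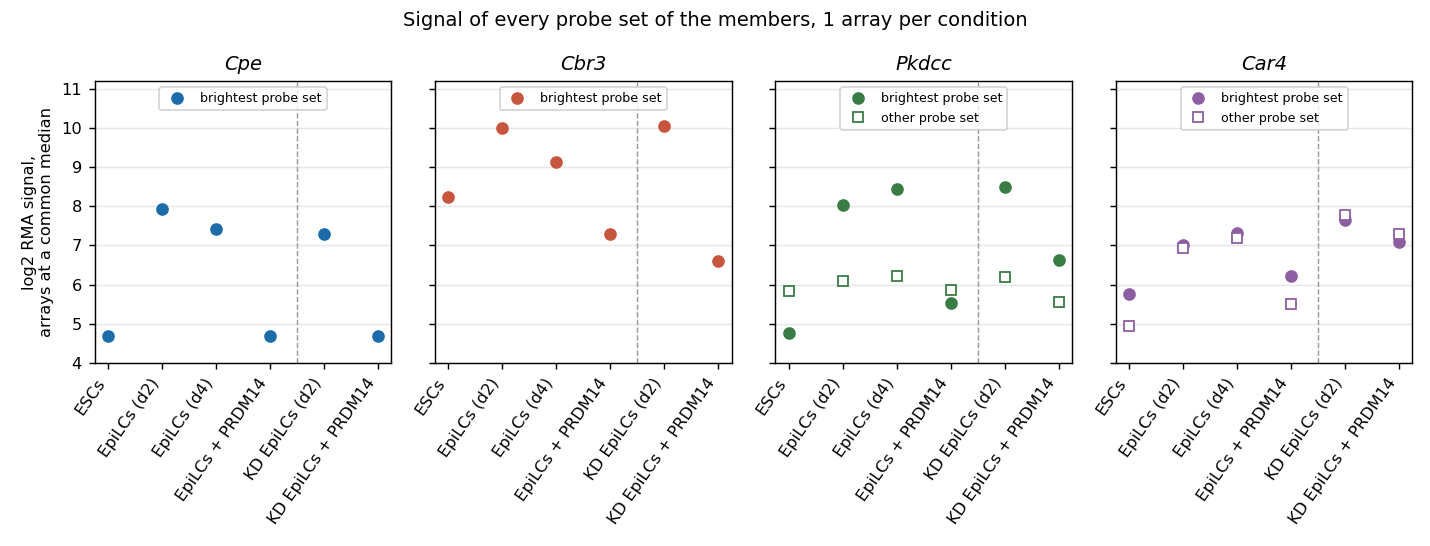
The log2 RMA signal of every probe set of *Cpe*, *Cbr3*, *Pkdcc* and *Car4* is plotted for the 6 arrays at a common median, with 1 point per array and no error bars because each condition has 1 array. *Cpe* reads 4.68 to 4.69 in ESCs and both cultures with PRDM14, whereas *Car4* stays at 7.09 in KD EpiLCs + PRDM14.

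With PRDM14 in the scramble cultures, all 4 genes were lower than in EpiLCs (d2), as their selection required. By probe sets, 5 of the 6 were lower, where 1.31% of all 45037 probe sets were lower. *Cpe* was 9.42-fold lower (log2 difference -3.24), at rank 2 of the 17097 genes counted from the lowest difference. *Cbr3* was 6.65-fold lower (-2.73) and *Pkdcc* 5.66-fold lower (-2.50), and these followed at ranks 3 and 4. *Car4* was 1.73-fold lower on its brightest probe set (-0.79, rank 162) and 2.73-fold lower on the other (-1.45). The second *Pkdcc* probe set differed by -0.21. The median of the 4 genes was -2.62, beside -0.01 over all genes.

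EpiLCs (d4), the culture of the same age without PRDM14, gave the same calls. Against it, *Cpe* was 6.65-fold lower (-2.73), *Cbr3* 3.59-fold lower (-1.84), *Pkdcc* 7.47-fold lower (-2.90) and *Car4* 2.15-fold lower (-1.11) in EpiLCs + PRDM14. The other *Car4* probe set was 3.20-fold lower (-1.68), and the other *Pkdcc* probe set differed by -0.36. All 4 genes and 5 of the 6 probe sets were thus lower, where 1.53% of all probe sets were lower. This comparison shares the array of EpiLCs + PRDM14 with the preceding one, and the selection used that array.

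Between day 2 and day 4 without PRDM14 the 4 genes went different ways. *Cbr3* was 1.85-fold lower at day 4 (-0.89) and was the only 1 of the 4 to pass the threshold, where 0.748% of all probe sets were lower. *Cpe* differed by -0.50, *Pkdcc* by 0.40 and *Car4* by 0.31, all within 1.5-fold, and the other probe sets of *Pkdcc* and *Car4* differed by 0.14 and 0.23. For *Cbr3* the choice of the reference culture therefore matters most, with 6.65-fold against day 2 and 3.59-fold against day 4.

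ESCs were also lower than EpiLCs (d2) in all 4 genes, again as selected, where 1.71% of all probe sets were lower. The differences were -3.24 for *Cpe*, -1.78 for *Cbr3*, -3.28 for *Pkdcc* and -1.25 for *Car4*. The other probe sets of *Car4* and *Pkdcc* differed by -2.00 and -0.25. This comparison shares the array of EpiLCs (d2) with those above.

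The direct comparison of ESCs with EpiLCs + PRDM14 does not use the EpiLC (d2) array, and it separated the 4 genes. *Cpe* had the same low signal of 4.68 in both, which may be at background, so a difference below it would not be seen. *Cbr3* was 1.93-fold higher in ESCs (0.95), where 1.56% of all probe sets were higher. *Pkdcc* was 1.71-fold lower in ESCs (-0.78), where 2.08% of all probe sets were lower, and its other probe set differed by -0.04. *Car4* differed by -0.45 and -0.55 on its probe sets, both within 1.5-fold. By the mean over its probe sets *Pkdcc* differed by -0.41 and did not pass. EpiLCs + PRDM14 thus read below ESCs for *Cbr3* and, on the brightest probe set, above them for *Pkdcc*.

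**Figure D2:**
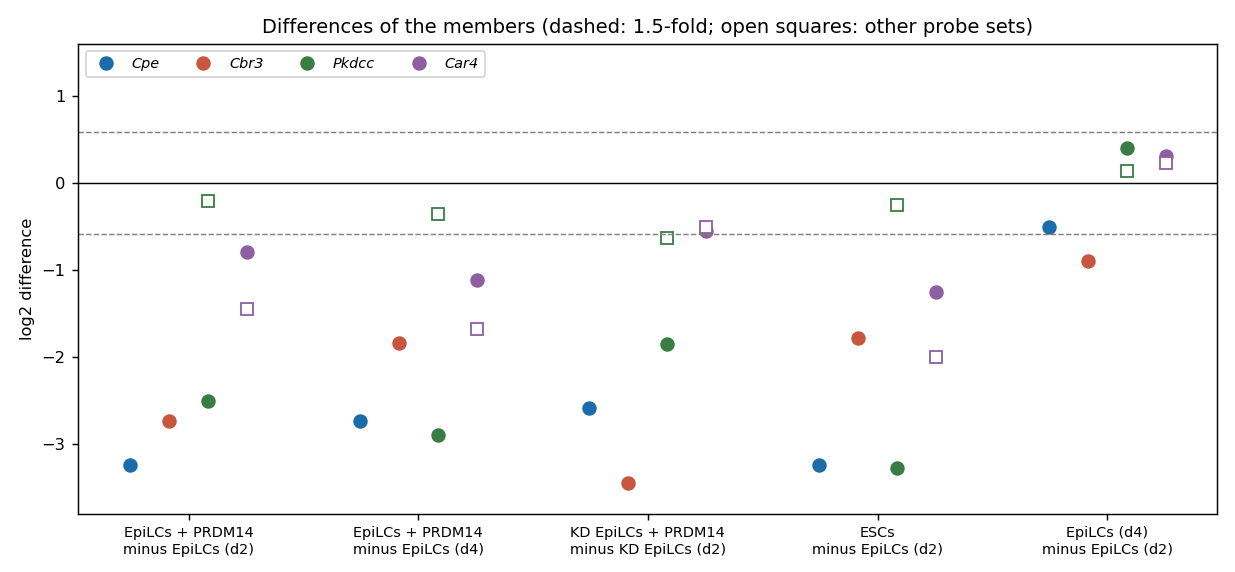
Log2 differences of *Cpe*, *Cbr3*, *Pkdcc* and *Car4* are plotted for 5 pairs of arrays, with filled circles for the brightest probe sets, open squares for the others and dashed lines at 1.5-fold, each point from 1 array against 1 array. All filled circles lie below the lower line in both scramble comparisons with PRDM14 and in ESCs, whereas *Car4* at -0.55 lies above it in the pair labelled KD.

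The pair labelled KD consists of arrays that the comparisons above do not use, although earlier results from it were known when the genes were chosen. *Cpe* was 6.0-fold lower with PRDM14 than in KD EpiLCs (d2) (-2.58), *Cbr3* 10.9-fold lower (-3.45) and *Pkdcc* 3.62-fold lower (-1.85). *Cbr3* had the lowest difference of all 17097 genes in this pair, and *Cpe* and *Pkdcc* had ranks 5 and 13. *Car4* differed by -0.55 and -0.50 on its probe sets, within 1.5-fold and at rank 476. Of the 4 genes, 3 were lower, and of the 6 probe sets, 4 were lower, the second *Pkdcc* probe set at -0.63 among them, where 1.85% of all probe sets were lower. The median of the 4 genes was -2.22, beside -0.01 over all genes.

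The difference of the culture with PRDM14 from EpiLCs (d2) was next compared between the pair labelled KD and the scramble pair. The scramble log2 difference was subtracted from the one labelled KD. A positive value means a smaller decrease in the pair labelled KD. This value was 0.65 for *Cpe*, -0.72 for *Cbr3*, 0.65 for *Pkdcc* and 0.24 for *Car4*, and 0.95 and -0.42 for the second probe sets of *Car4* and *Pkdcc*. Of all probe sets, 2.76% passed 1.5-fold in either direction. Values as large in size were reached by 2.03% of probe sets for *Cpe*, 1.49% for *Cbr3*, 2.07% for *Pkdcc*, 19.9% for the brightest *Car4* probe set and 0.597% for the other. The decrease was thus larger in the pair labelled KD for *Cbr3*. For *Pkdcc* it was smaller on the brightest probe set and larger on the other. For *Cpe*, which read 4.68 and 4.69 in the cultures with PRDM14 and may be at background there, the value repeats the lower start of KD EpiLCs (d2), and the sizes of the decrease cannot be compared. For *Car4*, only the probe set with the wider range passed the threshold. Both pairs set a culture meant for day 4 against day 2, and *Cbr3* differed by -0.89 between these days in the scramble cultures without PRDM14. No culture labelled KD was measured at day 4 without PRDM14. The part of culture time in these values was therefore not tested.

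Before PRDM14, KD EpiLCs (d2) differed from scramble EpiLCs (d2) in *Cpe*, which was 1.56-fold lower (-0.64), and in *Car4*, which was 1.54-fold higher (0.63) and 1.79-fold higher on its other probe set (0.84). *Cbr3* differed by 0.05, and the *Pkdcc* probe sets by 0.45 and 0.10. Of all probe sets, 2.26% were lower and 2.78% higher in this pair. The arrays labelled KD were deposited with medians of 5.07, where the others have 5.28 to 5.29. Without the shift to a common median, *Car4* differed by 0.41 and did not pass.

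With PRDM14, the cultures labelled KD and scramble differed in 3 of the 4 genes. *Pkdcc* was 2.14-fold higher (1.10) and *Car4* 1.82-fold higher (0.86) in KD EpiLCs + PRDM14, where 3.18% of all probe sets were higher. The other *Car4* probe set was 3.46-fold higher (1.79), and the other *Pkdcc* probe set differed by -0.31, in the opposite direction, so that their mean differed by 0.39 and did not pass. *Cbr3* was 1.59-fold lower (-0.67), where 2.99% of all probe sets were lower. *Cpe* differed by 0.01.

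**Figure D3:**
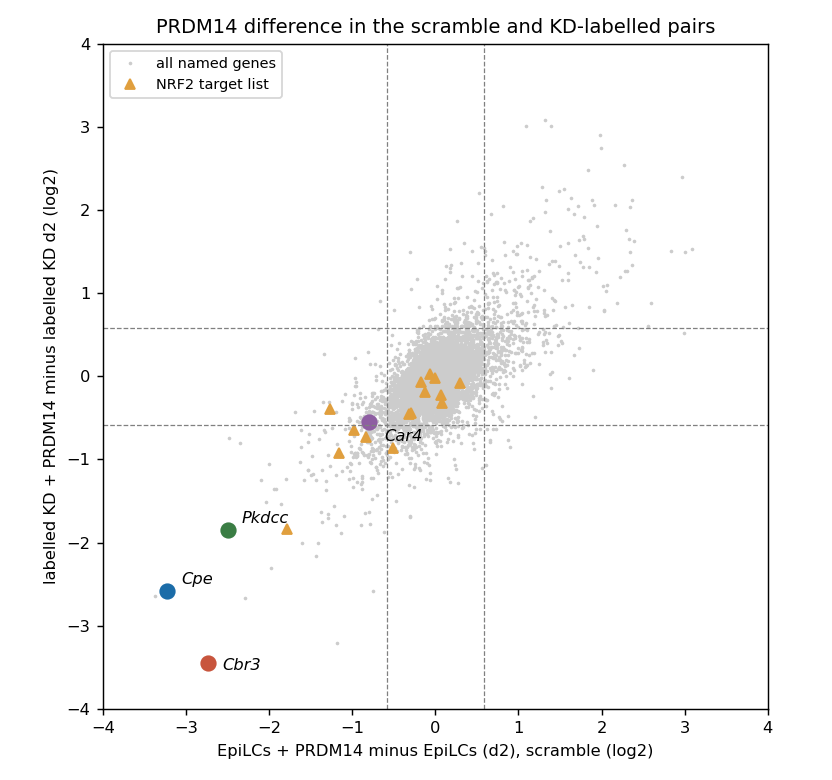
Each point is 1 of 17097 named genes, with the log2 difference between EpiLCs + PRDM14 and EpiLCs (d2) in the scramble cultures on the horizontal axis and the same difference in the cultures labelled KD on the vertical axis, and with dashed lines at 1.5-fold. *Cpe*, *Cbr3* and *Pkdcc* lie at the low end of both axes and *Car4* lies near the threshold, while triangles mark the list of NRF2 target genes.

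The families and pathways of the 4 enzymes were described next from fixed lists of genes. Among 17 measured carboxypeptidase genes, *Cpe* was the only one that was lower with PRDM14 in the scramble cultures and also the only one in the pair labelled KD. Of all genes, 1.91% and 2.53% were lower in these pairs. Without *Cpe*, which was selected for being lower, 0 of 16 were lower in either pair. *Agtpbp1*, which shortens the tails of tubulin, was the only one that was higher in the scramble cultures, at 0.72, and its other probe set differed by -0.19. *Cpd*, which encodes a carboxypeptidase of the trans-Golgi network, read 6.64 in EpiLCs (d2) and 6.52 in EpiLCs + PRDM14. Of 16 measured genes of prohormone processing, the pathway in which carboxypeptidase E acts, none passed in either pair, and the medians were 0.02 in the scramble cultures and 0.06 in those labelled KD. Of these 16, 7 read below the array median already in EpiLCs (d2), as did 8 of the 17 carboxypeptidase genes, so a decrease of those could hardly have been called.

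Of 30 measured genes of carbonyl reduction, 2 were lower in the scramble cultures and 5 in those labelled KD, and none was higher, where 1.91% and 2.53% of all genes were lower. Without *Cbr3*, which was selected for being lower, 1 of 29 and 4 of 29 were lower. The lower genes are *Cbr3* and *Hsd17b11*, a steroid dehydrogenase of lipid droplets, in both, and *Akr1b8* (-1.07), *Ptgr1* (-0.76) and *Akr1c13* (-0.62), which encode further oxidoreductases, in the pair labelled KD. *Akr1c13* read 5.34 and 4.73 in that pair, near and below the array median. *Hsd17b11* read 9.90 in EpiLCs (d2) and 8.58 in EpiLCs + PRDM14, and 9.48 and 8.12 in the cultures labelled KD. Its 3 probe sets differed by -1.32, -1.01 and 0.00 in the scramble pair. *Cbr1*, the close relative of *Cbr3*, read 7.75 in EpiLCs (d2), 8.02 in EpiLCs (d4), 7.63 in EpiLCs + PRDM14, 8.25 in KD EpiLCs (d2), 7.99 in KD EpiLCs + PRDM14 and 7.84 in ESCs. It differed by -0.12 and -0.27 with PRDM14, and so it did not share the decrease of *Cbr3*.

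NRF2 is a transcription factor that induces genes for NADPH-dependent detoxification and glutathione synthesis, and a list of its known targets was placed beside *Cbr3*. Of 15 measured targets, 5 were lower with PRDM14 in the scramble cultures and none was higher, with a list median of -0.30 beside -0.01 over all genes, where 1.91% of genes were lower. They are *Nqo1* (-1.79), a quinone reductase, *Hmox1* (-1.27), which degrades heme, *Txnrd1* (-1.16), a thioredoxin reductase, and *Gclm* (-0.98) and *Gclc* (-0.84), the subunits of the enzyme that starts glutathione synthesis. In the pair labelled KD 5 were lower, with *Pgd* (-0.86), an enzyme of the pentose phosphate pathway, and without *Hmox1*, and the median was -0.39, where 2.53% of genes were lower. Against EpiLCs (d4), 4 were lower, where 2.17% of genes were lower, and *Nqo1* was not among them. In ESCs 5 were lower than in EpiLCs (d2), with a median of -0.15, where 2.35% of genes were lower.

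*Nqo1* is also among the 5 genes with the profile closest to *Cbr3*. It read 8.65 in EpiLCs (d2), 7.35 in EpiLCs (d4), 6.86 in EpiLCs + PRDM14, 8.28 in KD EpiLCs (d2), 6.45 in KD EpiLCs + PRDM14 and 7.34 in ESCs. Like *Cbr3*, it was highest in the EpiLC (d2) cultures and was lower already at day 4, at a log2 difference of -1.30. *Nfe2l2*, the gene of NRF2 itself, is outside the lists and was looked up after the values of its targets were seen. It read 9.0 in EpiLCs (d2), 9.09 in EpiLCs (d4), 8.25 in EpiLCs + PRDM14, 9.02 in KD EpiLCs (d2), 8.36 in KD EpiLCs + PRDM14 and 8.97 in ESCs. On this brightest probe set, *Nfe2l2* was 1.68-fold lower in EpiLCs + PRDM14 than in EpiLCs (d2) (-0.75), where 1.91% of all genes were lower. KD EpiLCs + PRDM14 read 1.58-fold lower than KD EpiLCs (d2) (-0.66), where 2.53% of genes were lower. ESCs differed from EpiLCs (d2) by -0.03. Both cultures with PRDM14 still read high, above 89.6% and 90.3% of probe sets. The other *Nfe2l2* probe set was dim, at 3.57 to 3.73, and differed by 0.04 (scramble) and -0.11 (labelled KD) with PRDM14.

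Of 10 measured kinases of the secretory pathway, *Pkdcc* was the only one that was lower in the scramble pair, where 1.91% of all genes were lower. Without *Pkdcc*, which was selected for being lower, 0 of 9 were lower there. *Dipk1a*, a kinase-like protein of the endoplasmic reticulum, was higher at 0.87. In the pair labelled KD *Pkdcc* and *Dipk2a* (-0.71) were lower, where 2.53% of all genes were lower. The list medians of -0.02 and -0.07 were close to that of all genes.

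Of 16 measured carbonic anhydrases, *Car4*, *Car2* (-0.76) and *Car9* (-0.75) were lower with PRDM14 in the scramble cultures, and none was higher, where 1.91% of all genes were lower. Without *Car4*, which was selected for being lower, 2 of 15 were lower, and 2 of 15 in the pair labelled KD, where 2.53% of all genes were lower. *Car2* encodes an abundant cytosolic form and *Car9* a membrane form that is induced by hypoxia. *Car2* read 10.44 in EpiLCs (d2), 10.98 in EpiLCs (d4), 9.68 in EpiLCs + PRDM14, 10.41 in KD EpiLCs (d2), 9.92 in KD EpiLCs + PRDM14 and 9.72 in ESCs. Like *Car4*, it was highest of the scramble arrays at day 4, and it was within 1.5-fold in the pair labelled KD. In that pair *Car3* (-0.92), a form best known from muscle, and *Car9* (-0.66) were lower. The 3 other *Car3* probe sets differed by -0.16, -0.04 and -0.24 there and did not pass. Against EpiLCs (d4), the log2 differences were -1.71 for *Car3*, -1.30 for *Car2* and -0.13 for *Car9*, which was already lower in EpiLCs (d4) than in EpiLCs (d2) (-0.62), and the other *Car3* probe sets differed by -0.13, -0.03 and -0.44. Of 15 measured genes of acid-base transport, none passed in the scramble pair, and *Slc4a5* (-0.61) and *Slc16a3* (-0.62), a bicarbonate and a lactate transporter, were lower in the pair labelled KD. These 2 read 5.39 and 5.55 in KD EpiLCs (d2), near the array median. In EpiLCs (d2), 7 of the 15 genes and 7 of the 16 carbonic anhydrases already read at or below that median. So did 4 of the 10 secretory pathway kinases and 8 of the 30 carbonyl reduction genes. A decrease of those could hardly have been called.

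**Figure D4:**
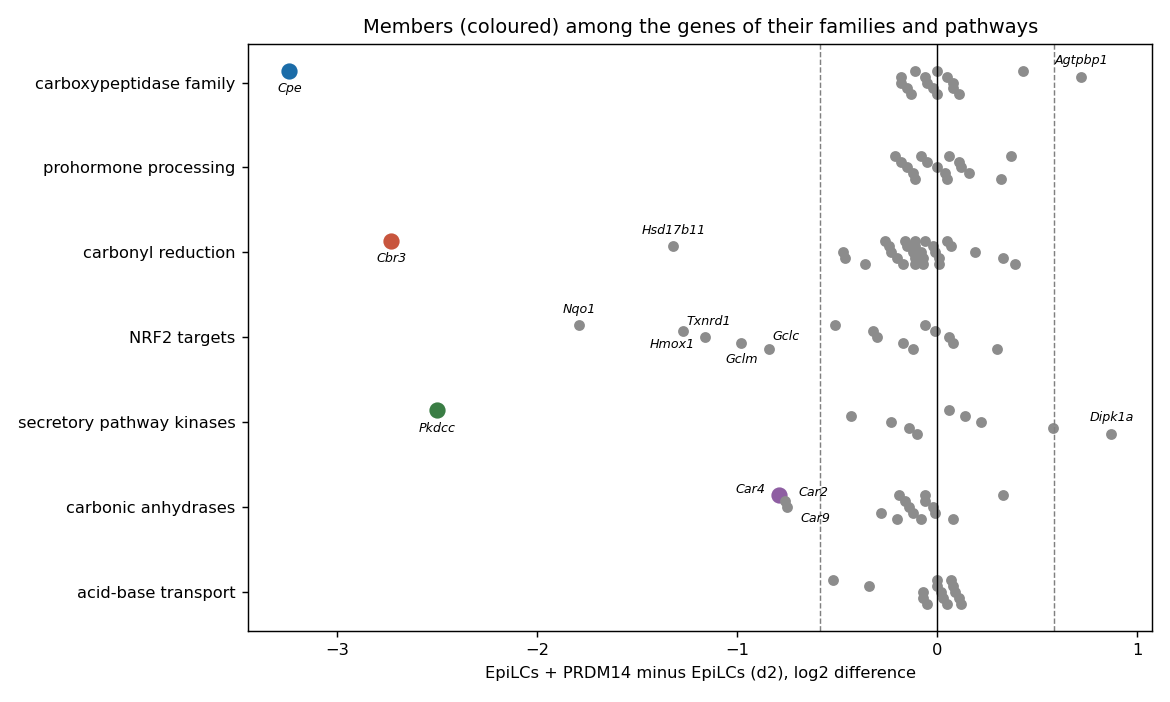
The log2 difference between EpiLCs + PRDM14 and EpiLCs (d2) in the scramble cultures is plotted for each measured gene of 7 lists, with 1 point per gene by its brightest probe set, the 4 enzyme genes coloured and dashed lines at 1.5-fold. *Cpe*, *Cbr3* and *Pkdcc* lie apart from the rest of their families, whereas *Car4* at -0.79 lies beside *Car2* and *Car9*.

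The 4 genes were compared with each other by the root mean square difference between their centred log2 profiles over the 6 arrays. *Cpe* lay closest to *Cbr3* (0.62) and *Pkdcc* (0.64), and *Cbr3* and *Car4* lay farthest apart (1.15). Pearson's r over the 6 arrays was 0.90 for *Cpe* with *Cbr3* and with *Pkdcc*, 0.94 for *Pkdcc* with *Car4* and 0.47 for *Cbr3* with *Car4*. The arrays share the cell line, and the genes were selected for a shared pattern, so these values are a description. In shape *Car4* followed *Pkdcc*, with a smaller range.

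Among all named genes, the 5 with the closest profile were taken for each enzyme gene by the same measure. For *Cpe* they were *Sox4* (0.44), *Pou3f1* (0.54), *Cbr3* (0.62), *Bcar3* (0.63) and *Pkdcc* (0.64). For *Cbr3* they were *Sox4* (0.36), *Bcar3* (0.43), *Otx2* (0.61), *Cpe* (0.62) and *Nqo1* (0.63). *Sox4*, *Pou3f1* and *Otx2* encode transcription factors, and the latter pair is known from the primed epiblast. *Bcar3* encodes a signalling adaptor.

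For *Pkdcc* the closest genes were *Pou3f1* (0.51), *Dusp4* (0.51), which encodes a phosphatase of MAP kinases, *Cpe* (0.64), *Fzd7* (0.72), a WNT receptor, and *Wt1* (0.73), a zinc finger factor. For *Car4* they were *Lmo4* (0.13), a transcription cofactor, *Slc44a2* (0.18), a choline transporter, *Adgrl2* (0.21), an adhesion receptor, *Mapk12* (0.23), a stress-activated kinase, and *Errfi1* (0.24), a feedback inhibitor of the EGF receptor. None of the 5 genes closest to *Car4* was among those of the other 3 enzyme genes. The differences are on the log2 scale, and a gene with a small range such as *Car4* has smaller differences to many genes.

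**Figure D5:**
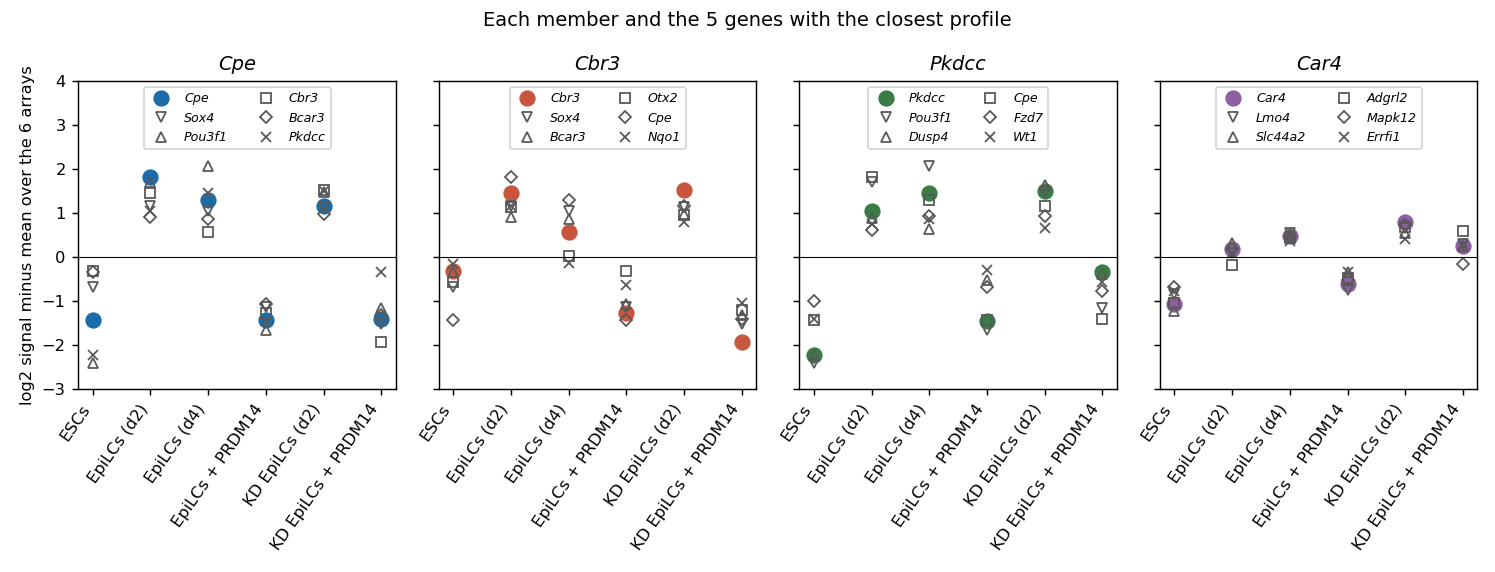
The log2 signal minus the gene's mean over the 6 arrays is plotted for each of the 4 enzyme genes, as filled circles, and for the 5 named genes with the closest profile, as open or crossed symbols, with 1 array per condition. *Cpe* shares *Sox4* with *Cbr3* and *Pou3f1* with *Pkdcc*, whereas *Car4* has a flatter profile and other neighbours.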

How the data were processed

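The deposited table holds log2 signals, to which the authors summarized scans by robust multi-array average (default parameters) of Affymetrix MG-430 PM array strips, 1 array per condition. Per the submitters' processing notes the software was Affymetrix Expression Console (version: not given in the sources used here). Total RNA was labelled with the GeneChip 3' IVT Express Kit.

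Of 45141 probe sets, 104 controls were left out. The platform annotation gives 1 symbol to 28898 of the others, several to 551 and none to 15588, and *Tet1* was not analysed here. The KD-labelled columns have other medians than the rest, so each array was shifted to a common median. The numbers of a pair of arrays were subtracted, with no test, and a difference of 1.5-fold, the cut-off of the study, was a call. Detection calls were not used, so low signals such as that of *Cpe* may be background. The members and the 14 gene lists were chosen with earlier results of these data known. Genes named are the 4 enzyme genes, the 5 closest profiles of each, the family genes past the threshold with PRDM14, *Cbr1* and *Cpd*. *Prdm14* and *Tet2* were named to check the labels, *Tubb3* and *Krt7* as the markers that passed in their lists, and *Nfe2l2* after its targets were seen. Not every such gene of the lists is named for each pair. Scripts ran in Python 3.11.15 with numpy 2.4.6 and pandas 2.3.3 and were tested on simulated data. The alternatives were no shift, quantile normalization, a 2-fold threshold, other rules from probe sets to genes and a filter on dim probe sets.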

Additional observations from a re-analysis of the deposited data

How the results depend on the processing

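Of 192 differences of *Cpe*, *Cbr3*, *Pkdcc* and *Car4* under the alternatives, 181 kept their side of the threshold and 11 no longer passed it. Many of these differences could not change. *Cpe* and *Cbr3* have no second probe set, so the rules from probe sets to genes repeat their values. The filter on dim probe sets left the values of the 4 genes as they were. The 2-fold threshold changes no value, so no sign could change under it. None of the differences past the threshold changed sign, while 4 within it did. These were *Cbr3* at d2 between the cultures labelled KD and scramble (0.05, against -0.16 as deposited and -0.01 after quantile normalization) and *Cpe* between those cultures with PRDM14 (0.01, against -0.20 and -0.01). Quantile normalization, the most variable probe set and the filter on dim probe sets changed no call of the genes and lists they were run on. The 2-fold threshold accounts for 8 of the 11, among them *Car4* with PRDM14 in the scramble cultures (-0.79). The values as deposited took *Car4* at d2 between the cultures labelled KD and scramble to 0.41. The mean over probe sets took *Pkdcc* to 0.39 between the cultures with PRDM14 labelled KD and scramble, and to -0.41 between ESCs and EpiLCs + PRDM14. Its second probe set differed by -0.31 and -0.04 in these pairs.

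At 2-fold, the numbers of the 4 genes that were lower at day 4, lower with KD at d2, lower with KD among the cultures with PRDM14 and higher in ESCs than with PRDM14 each went from 1 to 0. The list counts went from 5 to 3 for carbonyl reduction in the pair labelled KD, from 5 to 3 (scramble) and 5 to 1 (labelled KD) for NRF2 targets, from 2 to 1 for secretory kinases in the pair labelled KD, from 3 to 0 (scramble) and 2 to 0 (labelled KD) for carbonic anhydrases, and from 2 to 0 for acid-base transport in the pair labelled KD. A stricter threshold counts fewer genes by construction.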
